A study of Mus musculus with 23 samples.

Results

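The smooth muscle contractile programme is the set of genes that build the actin and myosin apparatus of smooth muscle cells and anchor it to the cell's scaffold and membrane. Its members were chosen by name: 34 contractile and cytoskeletal genes were looked up by symbol in the deposited table, and 34 of 34 were present among its 18682 genes. They were split from general knowledge into 22 muscle-enriched members (Acta2, Actg2, Myh11, Cnn1, Tagln, Des, Synpo2, Synm, Pgm5, Mylk, Lmod1, Myocd, Smtn, Ldb3, Ppp1r12b, Ppp1r14a, Pdlim3, Itga8, Jph2, Nexn, Tpm2 and Dmd) and 12 widely expressed ones (Tpm1, Myl9, Myl6, Actn1, Flna, Vcl, Csrp1, Cald1, Pdlim7, Fhl1, Cfl2 and Dmpk). They were read in the endometrium, the inner lining of the uterus, of 23 uterine horns of female C57BL/6 mice. There were 6 HG+ORG, 6 HG, 5 PBS and 6 SHAM horns. In the model, ethanol damages the endometrium and the horn is injected 4 days later, with a hydrogel made from endometrium carrying human endometrial organoids (HG+ORG), with the hydrogel alone (HG) or with saline (PBS), and tissue is taken 2 weeks after injection. The labels and design text state neither what the SHAM horns received nor the age of the mice. Per the labels' protocols, the lining was pressed out of the horn with forceps and so parted from the myometrium, the muscle wall of the uterus. The design text names 21 mice for the histology and transcriptome arm, so if all 23 horns came from these mice, some shared a mouse. The labels do not say which, and p-values over horns treat them as independent, so they may be too small.

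In smooth muscle, calcium binds calmodulin and switches on myosin light-chain kinase, which phosphorylates the regulatory light chain so that smooth muscle myosin pulls on actin filaments. A phosphatase reverses this, and filaments are held by dense bodies inside the cell and by adhesion plaques at its surface. Many genes of the set are driven by serum response factor, which binds a short DNA element, the CArG box, together with its partner myocardin. In the uterus this programme marks the myometrium and the muscle coat of vessels. Pericytes and activated fibroblasts also use part of it.

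Promoters of a few members are shown because many members varied together, and so that their letters can be set beside their levels. RefSeq windows of build GRCm38.p6, which run from 250 bases before each start to 50 after it, were found for 17 of the 22 muscle-enriched members (not Actg2, Myh11, Tagln, Myocd and Nexn) and for 12 of the 12 widely expressed ones. A CArG box is CC, then 6 bases of A or T, then GG, a pattern that is found on both strands alike. It lay in the windows of 2 of 17 muscle-enriched members (11.8%, Ldb3 and Dmd). Among widely expressed members it lay in those of 4 of 12 (33.3%, Myl9, Myl6, Vcl and Fhl1). Of all 27025 genes with a window, 488 held it (1.81%). A CArG-like box, in which 1 of the 6 middle A or T bases is a G or a C, lay in windows of 4 of 17 muscle-enriched members (23.5%, Acta2, Synm, Jph2 and Pdlim3) and 1 of 12 widely expressed members (8.33%, Myl9), against 9.69% of all genes. Such a match describes letters in a window and is not a site shown to be used. The 250 bases before the start, 5′ to 3′, follow for Acta2 and Cnn1, classic markers of the programme, for Synpo2, Synm and Pgm5, which had the smallest p between HG+ORG and HG horns, and for Myl9 and Dmd. Myl9 and Dmd were added after their values were seen, since both hold a CArG box and Myl9 varied widely while Dmd hardly did. A gene can have more than 1 start, and the 17 muscle-enriched members had 21 windows. For Dmd only a window that held a CArG box could be shown. Counts per gene do not separate starts, so this box cannot be tied to the Dmd level. Capitals mark CArG and CArG-like boxes.
Acta2 (chr19:34255374-34255623, minus strand): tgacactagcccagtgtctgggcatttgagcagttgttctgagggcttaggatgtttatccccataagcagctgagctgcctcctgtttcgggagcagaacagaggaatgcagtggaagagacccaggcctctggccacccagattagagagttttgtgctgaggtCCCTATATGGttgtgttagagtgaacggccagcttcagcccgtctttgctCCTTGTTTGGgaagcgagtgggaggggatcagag
Synpo2 (chr3:123236150-123236399, minus strand): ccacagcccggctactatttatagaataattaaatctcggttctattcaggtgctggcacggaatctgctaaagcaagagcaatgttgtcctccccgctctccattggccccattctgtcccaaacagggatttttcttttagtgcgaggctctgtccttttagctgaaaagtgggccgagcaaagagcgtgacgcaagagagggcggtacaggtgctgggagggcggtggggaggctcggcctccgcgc
Synm (chr7:67759743-67759992, minus strand): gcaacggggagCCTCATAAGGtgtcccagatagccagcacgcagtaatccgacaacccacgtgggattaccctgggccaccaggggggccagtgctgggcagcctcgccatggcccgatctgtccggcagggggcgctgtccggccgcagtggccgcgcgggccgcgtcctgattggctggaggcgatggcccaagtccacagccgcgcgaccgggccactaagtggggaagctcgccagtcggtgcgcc
Pgm5 (chr19:24861843-24862092, minus strand): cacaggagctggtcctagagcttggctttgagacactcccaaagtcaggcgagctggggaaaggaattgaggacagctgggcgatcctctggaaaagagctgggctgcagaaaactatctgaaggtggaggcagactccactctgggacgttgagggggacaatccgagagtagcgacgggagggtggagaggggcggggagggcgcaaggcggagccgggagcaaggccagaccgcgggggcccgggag
Cnn1 (chr9:22099003-22099252, plus strand): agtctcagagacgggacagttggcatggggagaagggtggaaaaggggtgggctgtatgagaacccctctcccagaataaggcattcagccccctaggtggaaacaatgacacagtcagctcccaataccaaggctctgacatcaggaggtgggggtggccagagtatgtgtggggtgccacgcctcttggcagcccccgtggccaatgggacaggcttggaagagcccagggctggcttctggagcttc
Myl9 (chr2:156775214-156775463, plus strand): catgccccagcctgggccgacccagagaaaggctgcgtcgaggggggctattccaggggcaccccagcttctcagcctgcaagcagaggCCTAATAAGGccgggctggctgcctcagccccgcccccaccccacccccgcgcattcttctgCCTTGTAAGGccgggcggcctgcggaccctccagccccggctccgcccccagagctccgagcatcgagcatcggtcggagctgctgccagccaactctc
Dmd (chrX:82948620-82948869, plus strand): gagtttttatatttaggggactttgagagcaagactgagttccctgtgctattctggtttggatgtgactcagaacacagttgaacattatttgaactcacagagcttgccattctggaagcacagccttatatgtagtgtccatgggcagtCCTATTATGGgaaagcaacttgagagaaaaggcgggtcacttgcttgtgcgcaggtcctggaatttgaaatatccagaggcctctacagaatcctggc
Acta2 held CArG-like boxes that begin 84 and 34 bases before the start. Myl9 held a CArG box at 161 bases and a CArG-like box at 99. Synm held a CArG-like box at 239 bases and Dmd a CArG box at 98. No capitals appear in the Synpo2, Pgm5 and Cnn1 stretches, which says only that neither kind of box lies in these windows.

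Libraries held 7920918 to 14902952 counts, with a median of 12701407. Each level is a log2 CPM, in which counts are divided by the TMM-corrected library size, with a prior count of 2, so that a gene with 0 counts stands at -2.66. HG+ORG horn 18 stood apart from the other 22 libraries: the summed level of 8 macrophage markers was 21119 CPM there, against 176 to 1998 CPM elsewhere, and that of 10 epithelial markers was 837 CPM, against 3615 to 11921 CPM elsewhere. SHAM horns 5 and 6 were far closer than any other pair of the same group (chi-square per degree of freedom 2.90, next pair 17.9, median of 55 pairs 124), but differed by more than counting noise and were kept as separate samples. Where leaving out HG+ORG horn 18 or merging SHAM horns 5 and 6 moved a count of members or a median fold by over 1.5 times, both values are given. Shares of all features at an unadjusted p under 0.05 are from fits with every horn, also beside counts with a library left out.

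The muscle-enriched members were high, and low, in largely the same horns, and the HG group held most of the high ones. Their mean level was 2.03 ± 1.18 log2 CPM in HG+ORG (SD, n = 6), 4.35 ± 1.53 in HG (n = 6), 2.56 ± 2.35 in PBS (n = 5) and 1.93 ± 0.33 in SHAM (n = 6). Without HG+ORG horn 18 the HG+ORG mean was 1.74 ± 1.06 (n = 5), under that of SHAM. The muscle-enriched members took 0.00965 to 0.0562% of all counts in HG+ORG horns, 0.0185 to 0.474% in HG horns, 0.00809 to 0.241% in PBS horns and 0.0136 to 0.0200% in SHAM horns. Thus the SHAM horns were tightly grouped, while each injected group ran from within or under the SHAM range to well above it. In HG horn 16, 22 of the 22 muscle-enriched members were above every SHAM horn, and the same held for 22 in PBS horn 10. HG horns 13 and 17 and PBS horn 7 had 20 each, HG horns 14 and 15 had 15 each, HG+ORG horns 18 and 20 had 14 each, and HG horn 12 had 8. At the other end, PBS horns 9 and 8 had 17 and 16 members below every SHAM horn, and HG+ORG horns 23, 22 and 19 had 14, 11 and 10. High and low horns therefore occurred side by side within PBS and within HG+ORG, whereas HG had 1 horn, horn 12, near the SHAM level. HG horn 16 held the highest value of 23 for 17 of the 22 members. In bulk tissue, fewer cells of a type and less RNA per cell cannot be told apart.

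**Figure D1:**
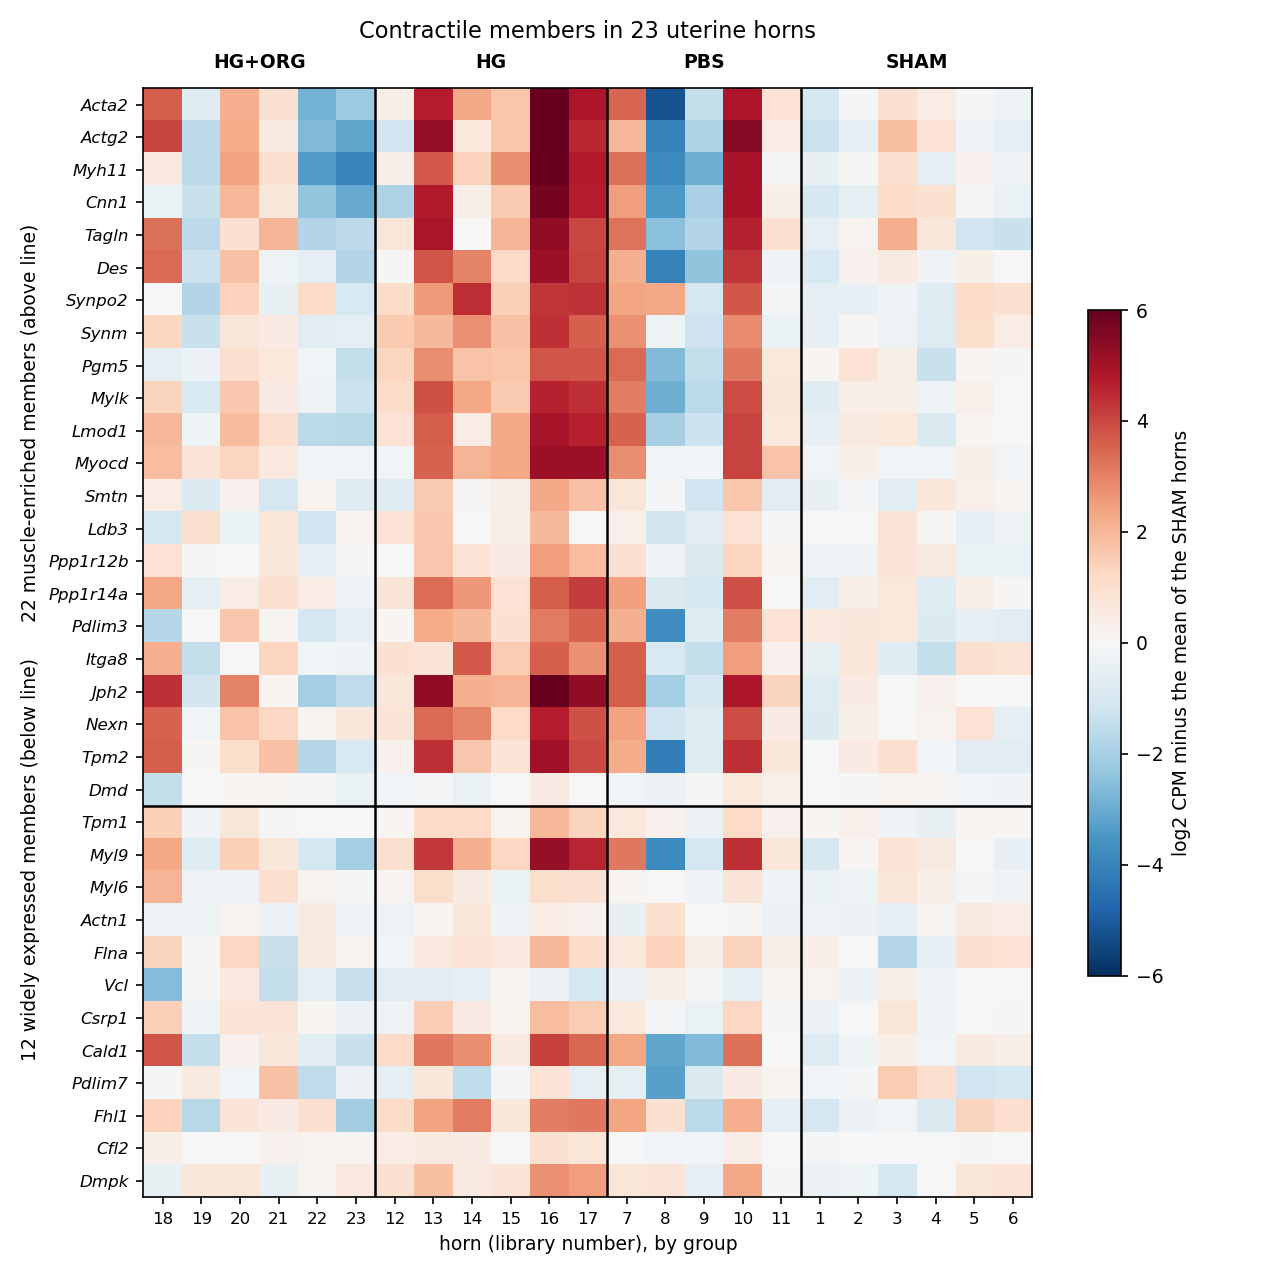
Level of each member (rows) in each horn (columns, by group), as log2 CPM minus the mean of the SHAM horns. Colours saturate at 6 in either direction. HG horns 13, 16 and 17 and PBS horn 10 are dark red over most muscle-enriched rows, and PBS horn 8 is blue in most of the first rows, while the Dmd, Actn1 and Cfl2 rows stay pale.

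For 20 of the 22 muscle-enriched members the HG median lay above every SHAM horn, against 2 members for the HG+ORG median and 6 for the PBS median. The HG+ORG median stayed within the SHAM range for 20 members and was the lowest of the 4 group medians for 13. The HG median was the highest of the 4 for 21.

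Between HG+ORG and HG horns, the comparison that asks what the organoids add to the hydrogel, the fitted fold of all 22 muscle-enriched members was below 0. edgeR's quasi-likelihood test, with Benjamini-Hochberg adjustment over 17708 features and all 4 groups in 1 fit, called 0 of 34 members and 0 features in all (0% called). At an unadjusted p under 0.05, 16 of the 22 were lower in HG+ORG and 0 were higher, where 4.63% of all features were lower and 5.18% higher. With 1 library left out that count ran from 12 to 20, the highest being without HG+ORG horn 18. The median fold of the 22 was -2.43 on the log2 scale (range -4.03 to -0.19), against 0.04 over all features. Among the 12 widely expressed members 5 were lower at that p (Tpm1, Myl9, Fhl1, Cfl2 and Dmpk) and the median of the 12 was -0.45. That median was -0.71 without HG+ORG horn 18 and -0.28 without HG horn 16. The horns of HG+ORG and HG did not overlap for 2 members, Synm and Pgm5, where 0.152% of features were lower and 0.0282% higher without overlap. Without HG horn 12 that count was 4, where 0.282% of features were lower without overlap. Without HG+ORG horn 18 it stayed at 2, where 0.808% of features were lower without overlap. DESeq2, which the submitters' notes name, called 6 members lower at an adjusted p under 0.05 (0.713% of features were lower by it and 0.224% higher): Synpo2 (adjusted p = 0.00229), Synm (0.00919), Pgm5 (0.0188), Mylk (0.0227), Cnn1 (0.0258) and Myh11 (0.0463). That DESeq2 count depended on single horns: it was 21 without HG+ORG horn 18, 10 without HG horn 15, 3 without HG horn 13, 2 without HG horn 17 or HG+ORG horn 19 or 23, and 1 without HG horn 16. The number of all features that DESeq2 called moved too. It was 163 with every horn, 699 without HG+ORG horn 18, 295 without HG horn 15 and 93 without HG horn 16. limma-voom called 0 members.

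Between HG and SHAM horns, the muscle-enriched members had the largest folds of the 6 comparisons. edgeR again called 0 of 34 members (0% of features called, smallest adjusted p 0.248), while 21 of 22 were higher in HG and 0 lower at an unadjusted p under 0.05, where 9.15% of features were higher and 2.12% lower. The exception was Dmd. The median fold of the 22 was 3.46 on the log2 scale, against 0.00 over all features, and 7 of the 12 widely expressed members were higher at that p. HG and SHAM horns did not overlap for 6 muscle-enriched members (Synpo2, Synm, Pgm5, Mylk, Ppp1r14a and Jph2) and for Myl9 and Cald1, where 1.19% of features were higher and 0.243% lower without overlap. Without HG horn 12, the count of muscle-enriched members was 12, where 1.72% of features were higher without overlap. Without HG horn 15 it stayed at 6, where 4.35% of features were higher without overlap. DESeq2 called 19 members higher (1.57% of features, with 0.0518% lower), 15 muscle-enriched ones and Myl9, Fhl1, Cfl2 and Dmpk. edgeR fitted on the HG and SHAM horns alone called 15 higher (2.36% of features, with 0.0185% lower), 12 muscle-enriched ones and Myl9, Cald1 and Fhl1. The DESeq2 count was 11 without SHAM horn 4, 4 without SHAM horn 1, 3 without HG horn 17 and 1 without HG horn 16. Over all features DESeq2 called 281 with every horn, against 71, 27, 32 and 32 in those fits. The edgeR count on the HG and SHAM horns alone was 0 with SHAM horns 5 and 6 merged and 0 in 9 of the 12 fits that left out 1 horn. Over all features that rule called 386 with every horn and 0 with SHAM horns 5 and 6 merged. In those 9 fits it called 17 features without HG horn 14 and 0 in the rest. HG+ORG vs HG and HG vs SHAM share the HG horns, so their opposite signs rest in part on the same libraries.

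**Figure D2:**
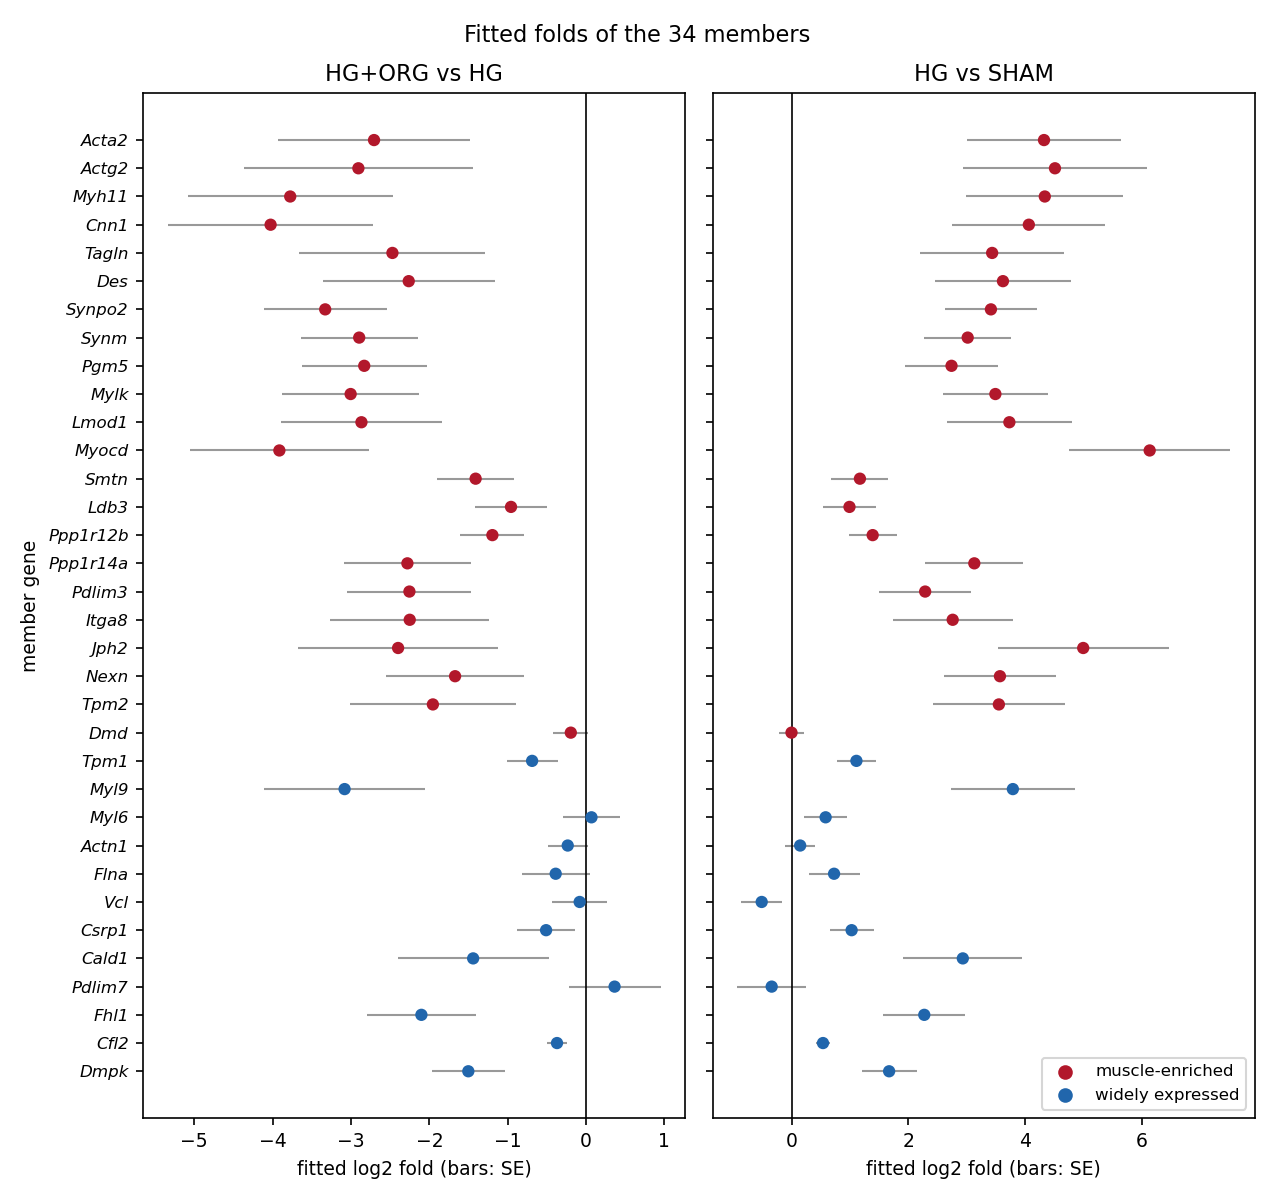
Fitted log2 fold with its SE (bars) for each member in HG+ORG vs HG (left) and HG vs SHAM (right), muscle-enriched members in red and widely expressed ones in blue. Red points lie below 0 in HG+ORG vs HG and, other than Dmd, above 0 in HG vs SHAM. Most blue points lie closer to 0.

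In the other comparisons fewer members stood out. PBS vs SHAM gave 0 calls by edgeR (0% of features called), 13 muscle-enriched members higher at an unadjusted p under 0.05 (1.52% of features higher, 0.655% lower) and a median fold of 2.29, and the count of 13 was 8 without SHAM horn 1 or 6 and 1 without PBS horn 10. The median fold was 1.02 without PBS horn 10 and 0.48 by limma-voom, and the difference between the mean muscle-enriched levels of PBS and SHAM horns, 0.62, was -0.11 without PBS horn 10. The members with the smallest p there were Myocd, Synpo2, Mylk and Ppp1r14a, with log2 folds of 2.13 (SE 0.77, edgeR adjusted p = 1.00) for Synpo2 and 2.31 (SE 0.88, edgeR adjusted p = 1.00) for Mylk. HG vs PBS gave 0 calls (0% of features called) and a median of 1.19, with Ppp1r12b and Ldb3 among the muscle-enriched members, and Cfl2 among the widely expressed ones, higher at an unadjusted p under 0.05 (2.38% of features higher, 0.988% lower). Cfl2 had the smallest p of all features there, with a log2 fold of 0.51 (SE 0.13, edgeR adjusted p = 0.991). The median was 2.17 without PBS horn 10, 0.61 without HG horn 16 and 1.96 by limma-voom. Without PBS horn 10 the count of muscle-enriched members was 14, and it was 0 without PBS horn 8, 9 or 11 or HG horn 16, and 1 without HG horn 13 or 17, HG+ORG horn 23 or SHAM horn 1 or 2. HG+ORG vs PBS gave 0 calls (0% of features called) and a median of -1.41, which was -0.13 without PBS horn 10 and -0.48 by limma-voom. The difference between the mean muscle-enriched levels of HG+ORG and PBS horns, -0.52, was 0.21 without PBS horn 10. In HG+ORG vs PBS, Synpo2, Pgm5, Cnn1 and Mylk were lower at an unadjusted p under 0.05 (1.23% of features lower, 4.86% higher). That count was 0 without PBS horn 10, 9 without PBS horn 8, 8 without PBS horn 9, 7 without HG+ORG horn 18, and 2 without PBS horn 7 or HG+ORG horn 19, 21, 22 or 23. HG+ORG vs SHAM gave 0 calls and 0 muscle-enriched members at an unadjusted p under 0.05 in either direction (0% of features called, 8.09% higher and 1.82% lower at the unadjusted p), with a median of 0.54. At that p, 2 muscle-enriched members were higher without HG+ORG horn 19, 22 or 23, and 1 was higher without SHAM horn 5, PBS horn 8, 9 or 10, or HG horn 12, 15 or 16. The median was 0.15 without HG+ORG horn 18, 0.34 with these groups alone in the fit and -0.06 by limma-voom. The difference between the mean muscle-enriched levels of HG+ORG and SHAM horns, 0.10, was below 0 without HG+ORG horn 18 (-0.19), 20 (-0.13) or 21 (-0.0042). The smallest edgeR p of a member in HG+ORG vs SHAM was that of Nexn (log2 fold 1.90, SE 0.93, adjusted p = 0.508), whose fold was 0.91 without HG+ORG horn 18. DESeq2 and limma-voom called 0 members in these 4 comparisons. DESeq2 called 0.466% of features higher and 0.0115% lower in HG+ORG vs SHAM, 0.00575% higher and 0% lower in PBS vs SHAM, and 0% in HG vs PBS and HG+ORG vs PBS. The horns of 0 members parted without overlap in any of the 4, where 0.0621% of features were higher and 0.102% lower in HG+ORG vs SHAM, 0.181% higher and 0.113% lower in PBS vs SHAM, 0.0734% higher and 0.0791% lower in HG vs PBS, and 0.0508% higher and 0.0565% lower in HG+ORG vs PBS.

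Myocd encodes myocardin, the partner of serum response factor that turns the contractile genes on. Its counts were few. Per horn they were 0 to 4 in HG+ORG (11 in all), 0 to 75 in HG (171 in all), 17, 0, 0, 33 and 6 in PBS horns 7 to 11 (56 in all), and 0 or 1 in SHAM (2 in all). Counts above 20 were found in HG horns 13, 16 and 17 and in PBS horn 10, the same horns that were high for the structural genes. Scaled by total counts, the HG+ORG total was 0.0606 times the HG total (exact 95% interval 0.0297 to 0.111, covering counting error only). The HG total was 89.0 times the SHAM total (24.3 to 741), the PBS total 30.8 times (8.15 to 261) and the HG+ORG total 5.40 times (1.18 to 50.1). These totals rest on few horns: HG horns 16 and 17 held 52 and 75 of the 171 HG counts, and PBS horn 10 held 33 of 56. The fitted folds of Myocd are uncertain in size, since 4 of 6 SHAM horns, HG horn 12 and HG+ORG horns 22 and 23 had 0 counts. These folds were -3.91 (SE 1.14, edgeR adjusted p = 0.270) in HG+ORG vs HG and 6.14 (SE 1.38, adjusted p = 0.248) in HG vs SHAM.

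Of 14 other regulators of the programme listed, 13 were tested and 0 were called in HG+ORG vs HG or HG vs SHAM. Foxf1 and Hey2 were lower in HG+ORG than in HG at an unadjusted p under 0.05, a count that was 4 without HG+ORG horn 18 and 0 without HG horn 14. Foxf1, Hey2, Mef2c and Prrx1 were higher in HG than in SHAM. Among all features, 4.63% were lower in HG+ORG vs HG and 9.15% higher in HG vs SHAM at that p. Srf, serum response factor itself, had folds of -0.34 (SE 0.24) in HG+ORG vs HG and -0.05 (SE 0.24) in HG vs SHAM. Mrtfa, a myocardin-related co-activator found in most cells, had folds of 0.29 (SE 0.20) in HG+ORG vs HG and -0.22 (SE 0.20) in HG vs SHAM. The median fold of the 13 was -0.27 in HG+ORG vs HG and 0.32 in HG vs SHAM.

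The thin filament members form the actin side of the apparatus. Acta2, smooth muscle alpha-actin, was at 1.38 to 7.85 in HG+ORG (median 4.30), 4.59 to 10.24 in HG (median 7.68), 7.72, -1.01, 2.77, 9.06 and 5.08 in PBS horns 7 to 11, and 3.16 to 5.12 in SHAM (median 4.18). In plain CPM the span was 0.337 in PBS horn 8 to 1208 in HG horn 16. The groups overlapped: HG horn 12 was inside the SHAM range, and HG+ORG horn 18 was above 3 of the HG horns. Actg2, the gamma-actin of visceral smooth muscle, ran from -1.19 to 5.99 in HG+ORG, 0.75 to 8.66 in HG, -2.15 to 7.44 in PBS and 0.60 to 3.70 in SHAM. Actin genes are close in sequence, and counts of Acta2 and Actg2 could hold reads of another actin gene.

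Calponin, transgelin and tropomyosin sit along the actin filament. Cnn1, calponin, which restrains the myosin motor, was at -0.79 to 4.21 in HG+ORG (median 1.36), 0.35 to 7.98 in HG (median 5.37), 4.74, -1.23, 0.27, 7.18 and 2.59 in PBS horns 7 to 11, and 1.28 to 3.31 in SHAM (median 1.97). Its high horns were again HG 13, 16 and 17 and PBS 10. Tagln (transgelin) averaged 2.07 ± 2.18 in HG+ORG, 4.66 ± 2.23 in HG, 2.74 ± 3.09 in PBS and 1.84 ± 1.33 in SHAM. Tpm2, the beta-tropomyosin of muscle, averaged 4.40 ± 1.94 in HG+ORG, 6.44 ± 2.05 in HG, 4.24 ± 3.22 in PBS and 3.76 ± 0.65 in SHAM. Tpm1, whose isoforms occur in most cells, averaged 7.31 ± 0.63 in HG+ORG, 7.99 ± 0.71 in HG, 7.39 ± 0.57 in PBS and 7.00 ± 0.28 in SHAM and so spread far less than Tpm2. Lmod1, a leiomodin that nucleates actin filaments, averaged 0.46 ± 1.67 in HG+ORG, 3.04 ± 1.91 in HG, 1.22 ± 2.75 in PBS and 0.24 ± 0.59 in SHAM. Smtn, smoothelin, averaged 4.37 ± 0.65 in HG+ORG, 5.55 ± 1.15 in HG, 4.74 ± 1.14 in PBS and 4.66 ± 0.49 in SHAM. Cfl2, the muscle-type cofilin that severs actin, had the smallest spread of the programme, at 5.98 ± 0.14 in HG+ORG, 6.33 ± 0.30 in HG, 5.83 ± 0.23 in PBS and 5.82 ± 0.05 in SHAM. Its fold of 0.54 in HG vs SHAM (SE 0.13, edgeR adjusted p = 0.248) was small next to those of the muscle-enriched members but had the smallest p among the widely expressed ones. HG horn 15 (5.85) was inside the SHAM range and the other 5 HG horns were above it.

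Thick filament and light-chain members form the motor side and its switch. Myh11, the smooth muscle myosin heavy chain, was at -0.79 to 5.54 in HG+ORG (median 2.62), 3.45 to 9.39 in HG (median 6.33), 6.40, -0.67, 0.17, 8.06 and 2.99 in PBS horns 7 to 11, and 2.51 to 4.04 in SHAM (median 3.05). HG horn 12 was within the SHAM range and the other 5 HG horns were above it. Mylk, myosin light-chain kinase, was at 2.69 to 5.57 in HG+ORG (median 4.07), 5.09 to 8.60 in HG (median 7.03), 7.05, 1.03, 2.36, 7.88 and 4.63 in PBS horns 7 to 11, and 3.25 to 4.38 in SHAM (median 4.10). All 6 HG horns were above all 6 SHAM horns for Mylk, and the fitted fold was 3.49 (SE 0.90, edgeR adjusted p = 0.248). Myl9, the regulatory light chain that this kinase phosphorylates, behaved like a muscle-enriched gene. It was at 1.30 to 5.61 in HG+ORG (median 3.27), 4.31 to 8.52 in HG (median 6.50), 6.45, -0.52, 2.27, 7.66 and 3.97 in PBS horns 7 to 11, and 2.36 to 4.12 in SHAM (median 3.34). HG was above SHAM in every horn, and 4 HG+ORG horns lay below every HG horn. Its folds were -3.08 in HG+ORG vs HG (SE 1.02, edgeR adjusted p = 0.281) and 3.79 in HG vs SHAM (SE 1.06, adjusted p = 0.248). Myl6, the essential light chain used by muscle and other cells, was at 8.32 ± 0.91 in HG+ORG, 8.44 ± 0.57 in HG, 7.97 ± 0.43 in PBS and 7.88 ± 0.44 in SHAM, and its highest value was in HG+ORG horn 18 (9.90).

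Phosphatase members bear on how long the light chain stays phosphorylated. Ppp1r14a encodes CPI-17, an inhibitor of myosin phosphatase. It averaged 0.70 ± 1.01 in HG+ORG, 2.71 ± 1.44 in HG, 1.07 ± 2.15 in PBS and 0.15 ± 0.59 in SHAM, and HG horns lay at 0.94 and above where SHAM horns lay at 0.80 and below. Ppp1r12b, a targeting subunit of that phosphatase, averaged 4.52 ± 0.50 in HG+ORG, 5.53 ± 0.95 in HG, 4.56 ± 0.88 in PBS and 4.32 ± 0.52 in SHAM. Dmpk, a kinase named for myotonic dystrophy, averaged 4.45 ± 0.56 in HG+ORG, 5.78 ± 0.94 in HG, 4.87 ± 1.07 in PBS and 4.23 ± 0.69 in SHAM. Its fold in HG+ORG vs HG was -1.50 (SE 0.47, edgeR adjusted p = 0.281).

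Intermediate filaments link dense bodies to one another and to the membrane. Des, desmin, was at 1.75 to 6.92 in HG+ORG (median 3.11), 3.61 to 8.67 in HG (median 6.92), 5.72, -0.52, 1.12, 7.80 and 3.31 in PBS horns 7 to 11, and 2.61 to 4.07 in SHAM (median 3.66). HG horn 12 was inside the SHAM range. Synm, synemin, which tethers desmin filaments to adhesion sites, was at -0.72 to 1.91 in HG+ORG (median 0.55), 2.16 to 4.98 in HG (median 2.96), 3.33, 0.31, -0.64, 3.42 and 0.19 in PBS horns 7 to 11, and -0.15 to 1.65 in SHAM (median 0.50). Every HG horn was above every HG+ORG and every SHAM horn for Synm, as for Pgm5 and for no other member. Its folds were -2.89 in HG+ORG vs HG (SE 0.74, edgeR adjusted p = 0.270) and 3.02 in HG vs SHAM (SE 0.75, adjusted p = 0.248).

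Pgm5 encodes aciculin, a phosphoglucomutase-like protein of adhesion plaques that binds dystrophin. It was at 0.35 to 2.74 in HG+ORG (median 1.52), 3.07 to 5.55 in HG (median 4.03), 5.20, -0.83, 0.36, 4.98 and 2.42 in PBS horns 7 to 11, and 0.48 to 2.65 in SHAM (median 1.92). Its fold in HG+ORG vs HG was -2.83 (SE 0.80, edgeR adjusted p = 0.270). Synpo2, myopodin, an actin-bundling protein of dense bodies and Z-discs, had the smallest p of the programme in HG+ORG vs HG. It was at 0.85 to 3.95 in HG+ORG (median 2.35), 3.70 to 7.02 in HG (median 6.01), 4.94, 4.84, 1.57, 6.32 and 2.44 in PBS horns 7 to 11, and 1.85 to 3.69 in SHAM (median 2.22). HG+ORG horn 20 was above HG horn 12, so these groups overlapped, and the lowest HG horn (3.70) was barely above the highest SHAM horn (3.69). Its folds were -3.33 in HG+ORG vs HG (SE 0.78, edgeR adjusted p = 0.270) and 3.42 in HG vs SHAM (SE 0.79, adjusted p = 0.248).

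**Figure D3:**
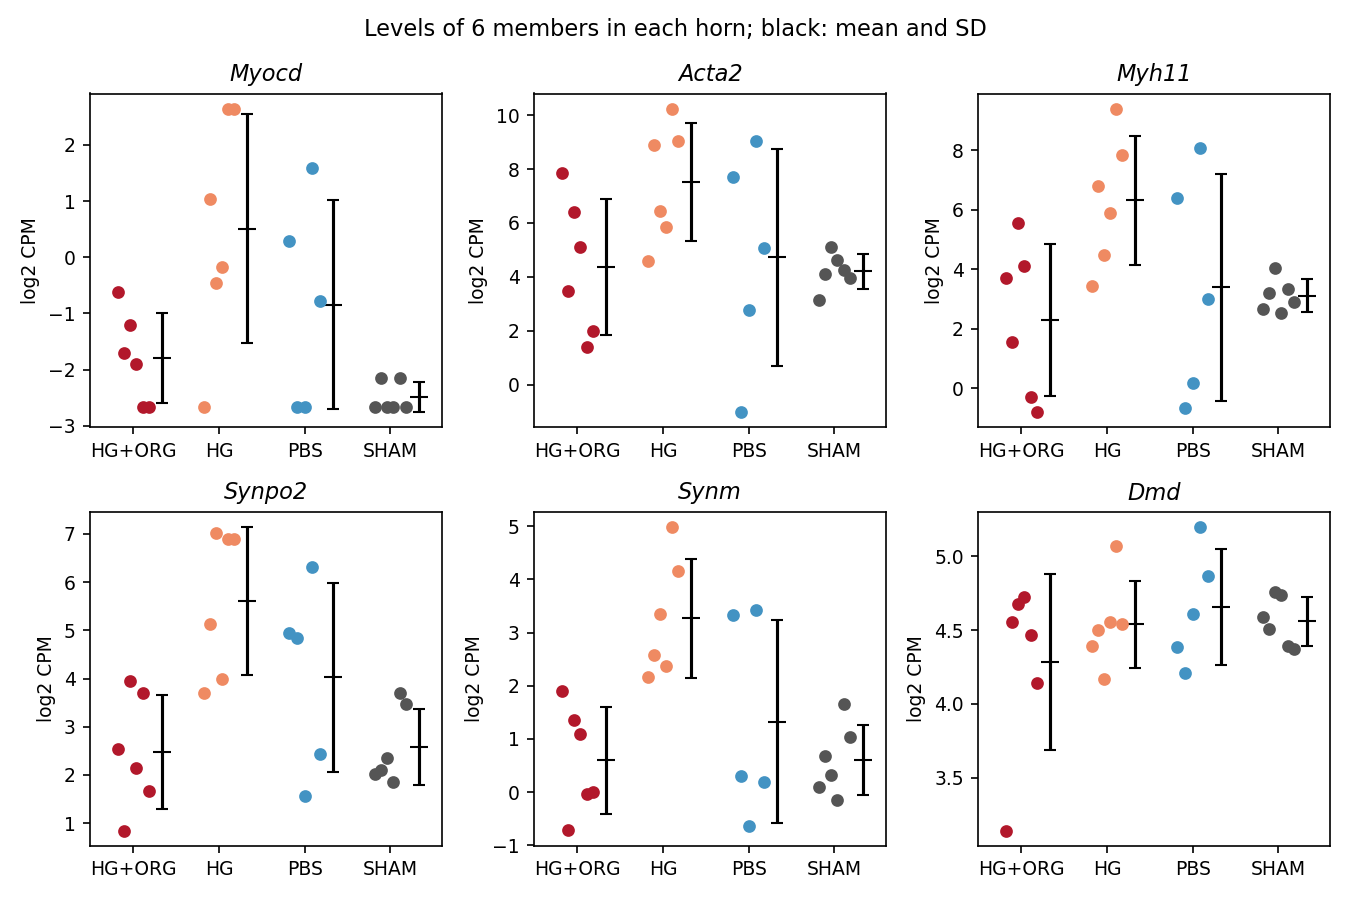
Level (log2 CPM) of Myocd, Acta2, Myh11, Synpo2, Synm and Dmd in each horn by group (dots), with the mean and SD of the group (black). Synm in HG lies above every HG+ORG and SHAM horn, PBS is split between high and low horns for the first 5 genes, and Dmd lies between 4.14 and 5.20 other than in HG+ORG horn 18 (3.14).

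The remaining dense body and Z-disc members were less uniform. Pdlim3, which binds alpha-actinin, averaged 2.47 ± 1.14 in HG+ORG, 4.69 ± 1.29 in HG, 3.03 ± 2.68 in PBS and 2.71 ± 0.70 in SHAM. Nexn, nexilin, averaged 0.62 ± 1.34 in HG+ORG, 2.25 ± 1.52 in HG, 0.40 ± 2.17 in PBS and -0.57 ± 0.62 in SHAM. Ldb3, a Z-disc protein, differed less, at 1.11 ± 0.89 in HG+ORG, 2.04 ± 0.84 in HG, 1.12 ± 0.77 in PBS and 1.25 ± 0.42 in SHAM. Fhl1, a LIM-domain protein, averaged 2.87 ± 1.47 in HG+ORG, 5.14 ± 1.10 in HG, 3.55 ± 1.73 in PBS and 2.89 ± 0.97 in SHAM. Csrp1, another LIM-domain protein, averaged 7.21 ± 0.71 in HG+ORG, 7.67 ± 0.84 in HG, 7.05 ± 0.68 in PBS and 6.80 ± 0.38 in SHAM. Pdlim7 averaged 7.22 ± 1.08 in HG+ORG, 7.00 ± 0.86 in HG, 6.40 ± 1.48 in PBS and 7.20 ± 1.09 in SHAM, with no order like that of Acta2. Jph2, junctophilin, which holds the calcium store close to the surface membrane, averaged -0.15 ± 2.62 in HG+ORG, 2.96 ± 2.24 in HG, 0.72 ± 2.94 in PBS and -0.62 ± 0.42 in SHAM.

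At the membrane, the broadly used adhesion members Actn1 and Vcl did not share the order of the muscle-enriched group means. The group means of Flna did, with HG and PBS nearly equal. Actn1, alpha-actinin, averaged 8.25 ± 0.36 in HG+ORG, 8.47 ± 0.40 in HG, 8.37 ± 0.57 in PBS and 8.32 ± 0.43 in SHAM. Flna, filamin, averaged 8.59 ± 0.98 in HG+ORG, 9.06 ± 0.70 in HG, 9.05 ± 0.50 in PBS and 8.25 ± 1.00 in SHAM. Vcl, vinculin, averaged 4.60 ± 1.13 in HG+ORG, 4.98 ± 0.39 in HG, 5.40 ± 0.37 in PBS and 5.51 ± 0.28 in SHAM, and its fold in HG+ORG vs SHAM was -0.60 (SE 0.35, edgeR adjusted p = 0.62), or -0.99 without HG+ORG horn 20. The Vcl medians of HG+ORG (4.56) and HG (4.90) lay below every SHAM horn (5.16 and above), though single HG+ORG and HG horns reached 6.07 and 5.61. Itga8, an integrin of smooth muscle and stroma, averaged -0.96 ± 1.26 in HG+ORG, 0.96 ± 1.31 in HG, -0.43 ± 2.17 in PBS and -1.25 ± 0.99 in SHAM. Dmd, dystrophin, whose gene also yields short forms outside muscle, averaged 4.28 ± 0.60 in HG+ORG, 4.54 ± 0.30 in HG, 4.65 ± 0.39 in PBS and 4.56 ± 0.17 in SHAM. Of 26 adhesion and costamere genes, 24 were tested and 0 called in HG vs SHAM. At an unadjusted p under 0.05, 5 were higher in HG than in SHAM (Sspn, Itga7, Itga1, Lims2 and Sgcb), where 9.15% of all features were higher.

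How far the members spread over all 23 horns divided them in another way. The median SD was 1.81 log2 units for muscle-enriched members, 0.78 for widely expressed ones and 0.56 over all features. An SD above the 90th percentile of all features was found for 18 of 22 muscle-enriched and 3 of 12 widely expressed members (Myl9, Cald1 and Fhl1). Actg2 (2.89), Myh11 (2.78) and Acta2 (2.75) had the largest SDs. Smtn, Ldb3, Ppp1r12b and Dmd were the muscle-enriched members under that percentile. Dmd (SD 0.39, 29.9th percentile) and Cfl2 (SD 0.28, 13.6th percentile) spread less than most genes. These percentiles ignore level, and the SD of features changed with level. Against features of similar level, the muscle-enriched Synm (85.4th percentile), Ppp1r14a (87.2nd) and Myocd (89.9th) also fell under the 90th percentile. The widely expressed Pdlim7 rose above it, so the 2 classes differed less on that scale. Much of the spread lay within groups: the median SD of the muscle-enriched members was 1.23 in HG+ORG, 1.53 in HG and 2.69 in PBS, against 0.61 in SHAM. Their SD was larger than in SHAM for 21 of 22 members in HG+ORG, 22 in HG and 22 in PBS.

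**Figure D4:**
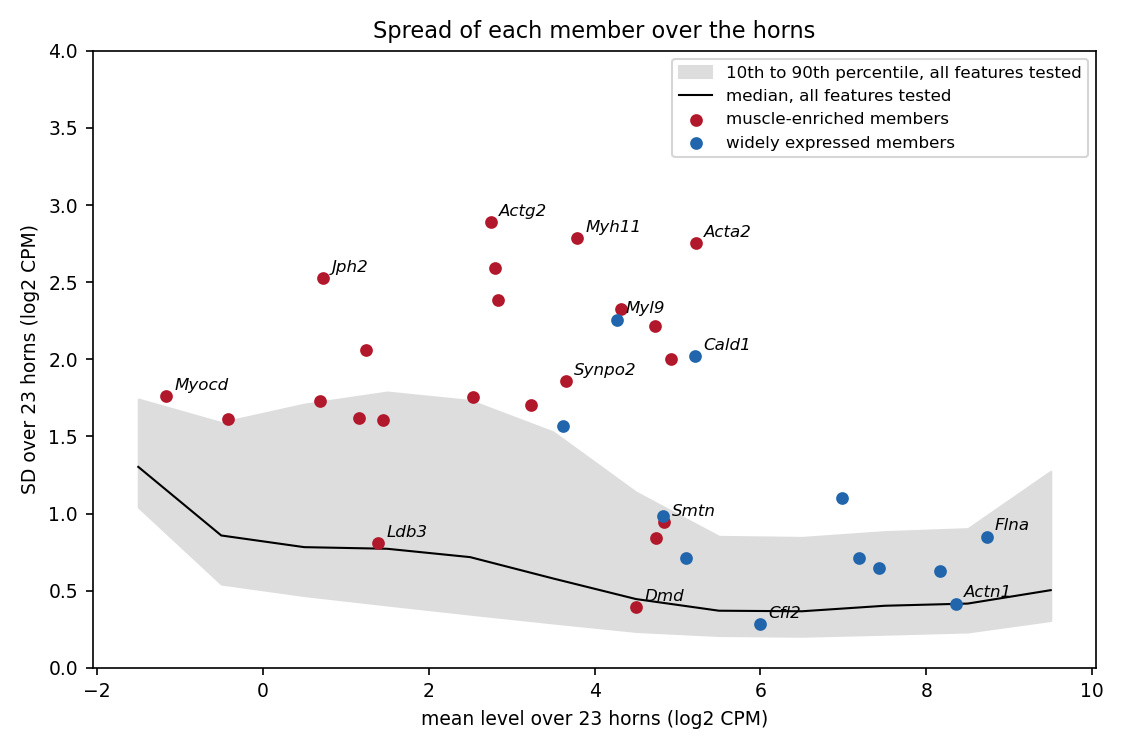
SD over 23 horns against mean level (log2 CPM) for each member, with the median (line) and the 10th to 90th percentile (grey) of all features tested at that level. Most muscle-enriched members (red) and the widely expressed Myl9, Cald1, Fhl1 and Pdlim7 lie above the grey band, while Dmd and Cfl2 lie near or under the median line.

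Per kilobase of exon, Acta2 and Myl9 were far below Csrp1 and Myl6 in SHAM and near them in the median of HG. The median level of Acta2 in CPM per kilobase was 10.3 in HG+ORG, 129 in HG, 15.3 in PBS and 8.18 in SHAM. That of Myl9 was 9.19 in HG+ORG, 98.8 in HG, 13.3 in PBS and 8.62 in SHAM. Csrp1 had a median of 80.2 in HG+ORG, 118 in HG, 53.4 in PBS and 55.1 in SHAM, and Myl6 of 77.6 in HG+ORG, 122 in HG, 75.9 in PBS and 65.5 in SHAM. On this scale Acta2 was the muscle-enriched member that reached Myl6 and Csrp1, in the HG group's median alone. The next highest HG medians of muscle-enriched members were those of Tpm2 (43.3), Des (33.4) and Actg2 (31.3).

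The balance between members, given as a difference of log2 CPM within 1 library and compared across horns only, set a few horns apart. Cnn1 minus Acta2 was -2.58 to -1.53 in 4 of the HG+ORG horns, -2.79 in horn 23 and -6.04 in horn 18, and -4.24 to -1.93 in HG, -2.98 to -0.21 in PBS and -2.46 to -1.48 in SHAM. Myh11 minus Acta2 was also lowest in HG+ORG horn 18, at -4.16, against -2.79 to -0.85 in the other HG+ORG horns, -2.13 to 0.04 in HG, -2.60 to 0.35 in PBS and -2.12 to -0.51 in SHAM. HG+ORG horn 18 thus had high Acta2 (7.85), Actg2 (5.99), Des (6.92), Tpm2 (7.40) and Cald1 (8.25) with Cnn1 (1.81), Synpo2 (2.55) and Myh11 (3.69) inside the SHAM ranges. This was the library with the high macrophage markers, and its summed stromal markers (9746 CPM, against 18.3 to 3818 CPM in the other 22 horns) were also the highest. Their part in this pattern was not tested.

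Synpo2 also departed from Acta2. Synpo2 minus Acta2 was -5.30 to 2.32 in HG+ORG, -3.78 to 0.57 in HG, -2.78 to 5.86 in PBS and -2.78 to -0.47 in SHAM. PBS horn 8, with the lowest or tied lowest level of 13 muscle-enriched members, had the value 5.86: Synpo2 was 4.84 there while Acta2 was -1.01. That Acta2 level rests on 5 counts, so the size of the difference is uncertain. HG+ORG horn 22 (2.32) and HG horn 14 (0.57) were the others above 0. HG horn 14 had the highest Synpo2 of all horns (7.02) with Actg2 and Cnn1 at 2.56 each, inside the SHAM ranges. It also had the highest summed pericyte markers (608 CPM, against 14.6 to 394 CPM in the other 22 horns) and endothelial markers (916 CPM, against 9.73 to 734 CPM). Cald1, caldesmon, an actin-binding brake on contraction whose long form is muscle-specific, exceeded Myh11 by 3.94 to 4.56 in HG+ORG horns 18, 22 and 23, against at most 2.80 in HG, 2.04 in PBS and 1.93 in SHAM horns. Myh11 had 9 and 6 counts in HG+ORG horns 22 and 23, so the size of these differences is uncertain.

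**Figure D5:**
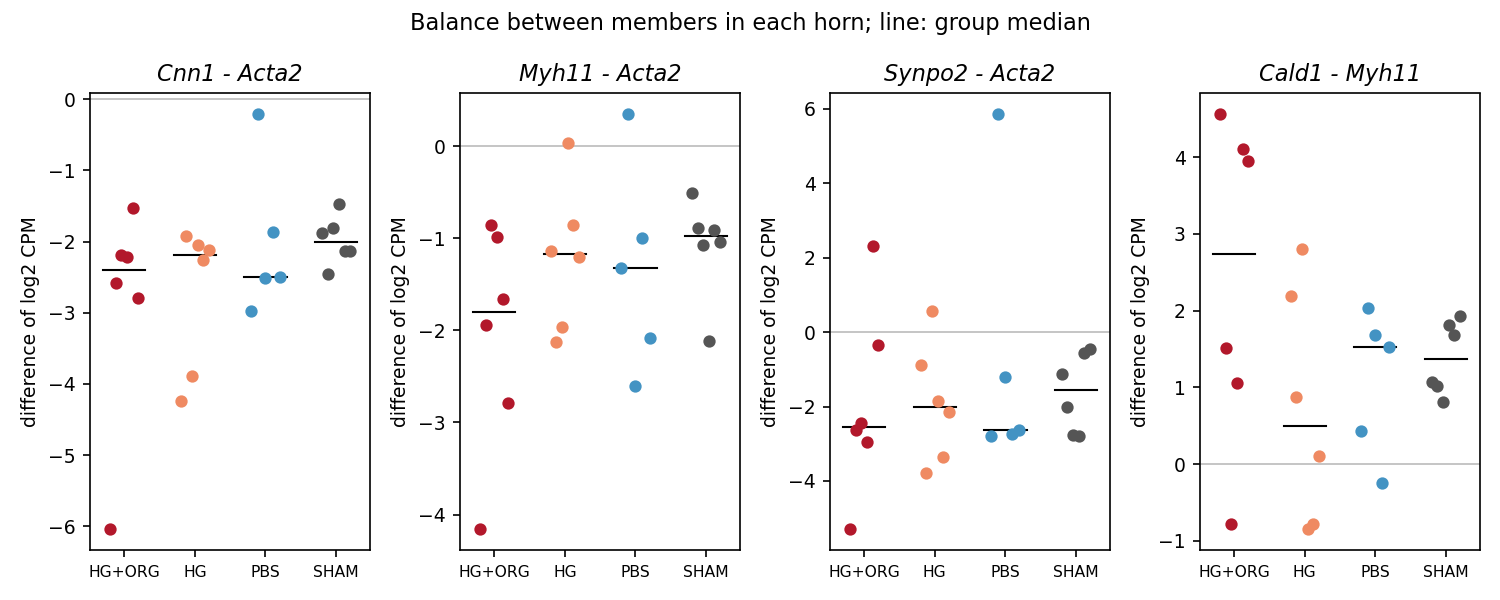
Difference of log2 CPM between pairs of members in each horn by group, with the group median (line). HG+ORG horn 18 is lowest for Cnn1 minus Acta2 (-6.04) and Myh11 minus Acta2 (-4.16), PBS horn 8 is highest for Synpo2 minus Acta2 (5.86), and 3 HG+ORG horns lie at 3.94 and above for Cald1 minus Myh11.

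Of 20 other smooth muscle genes listed, such as the potassium channel subunit Kcnmb1 and the small heat shock protein Hspb7, 18 were tested and 0 called. At an unadjusted p under 0.05, 9 were lower in HG+ORG than in HG and 14 were higher in HG than in SHAM, with median folds of -1.10 in HG+ORG vs HG and 2.03 in HG vs SHAM. Among all features, 4.63% were lower and 5.18% higher in HG+ORG vs HG, and 9.15% were higher in HG vs SHAM, at that p. Kcnmb1 had folds of -2.71 (SE 1.12) in HG+ORG vs HG and 3.32 (SE 1.15) in HG vs SHAM. Related isoforms of the members in other cells, such as Actb, Myh9 and Cnn3, had median folds of 0.16 in HG+ORG vs HG and 0.09 in HG vs SHAM over 21 tested, with 2 lower and 1 higher in HG+ORG than in HG and 5 higher in HG than in SHAM at that p. The isoform counts in HG+ORG vs HG were close to what the shares over all features give for so few genes. Without HG+ORG horn 18, 5 isoforms were lower and 0 higher in HG+ORG than in HG. Flnc and Acta1, a filamin and an actin of striated muscle, were those lower in HG+ORG and were among those higher in HG.

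Markers of other cell types were high in some of the same horns. The counts of markers below stand beside these shares of all features at an unadjusted p under 0.05. In HG+ORG vs HG 4.63% were lower and 5.18% higher, and in HG vs SHAM 9.15% were higher and 2.12% lower. Over the 10 endothelial markers the summed level was 18.8 to 594 CPM in HG+ORG, 82.2 to 916 in HG, 9.73 to 734 in PBS and 19.8 to 121 in SHAM, and 10 of 10 were higher in HG than in SHAM at an unadjusted p under 0.05. The 10 pericyte markers summed to 16.1 to 394 CPM in HG+ORG, 30.8 to 608 in HG, 14.6 to 355 in PBS and 14.9 to 80.3 in SHAM, with 6 of 10 higher (3 without HG horn 14 or 17 or SHAM horn 1 or 4). The 10 stromal markers summed to 116 to 9746 CPM in HG+ORG, 327 to 3818 in HG, 18.3 to 3729 in PBS and 131 to 681 in SHAM, with 7 of 10 higher (4 without HG horn 14). In PBS horns 8 and 9, the lowest for the muscle-enriched members, stromal markers summed to 18.3 and 19.8 CPM, and in HG horn 16 and PBS horn 10, where all 22 muscle-enriched members were above every SHAM horn, to 3542 and 3729 CPM. Other horns did not follow this: HG+ORG horn 20, with 14 muscle-enriched members above every SHAM horn, had stromal markers at 130 CPM, just under the lowest SHAM horn. HG horn 15, with 15 such members, was at 327 CPM, inside the SHAM range, while HG horn 12, near SHAM for these members, was at 883 CPM, above it. The 10 epithelial markers summed to 837 to 11620 CPM in HG+ORG, 3615 to 7123 in HG, 5404 to 8174 in PBS and 6176 to 11921 in SHAM. Of 13 striated muscle markers 5 were in the table, and these summed to 4.82 to 14.6 CPM in HG+ORG, 5.98 to 66.7 in HG, 3.46 to 31.8 in PBS and 5.77 to 12.7 in SHAM. The 7 adipocyte markers summed to 19.9 to 657 CPM in HG+ORG, 17.6 to 12838 in HG, 23.9 to 987 in PBS and 23.8 to 2526 in SHAM, and their highest sum was in HG horn 12, the HG horn nearest the SHAM level for the muscle-enriched members. The 6 mesothelial markers, of the outer lining of the uterus, summed to 12.6 to 57.9 CPM in HG+ORG, 31.8 to 188 in HG, 6.26 to 73.3 in PBS and 21.8 to 101 in SHAM, and their highest sums were in HG horns 13 and 16 (188 and 132 CPM). Of the 5 tested, 2 were lower in HG+ORG than in HG (1 to 4 with 1 library left out) and 1 was higher in HG than in SHAM at that p. Of 6 nerve markers 3 were in the table, and these summed to 6.14 to 28.1 CPM in HG+ORG, 6.55 to 13.5 in HG, 4.42 to 10.5 in PBS and 3.58 to 13.6 in SHAM. No listed marker that was in the table was at 0 in every horn of a group. In HG+ORG vs HG, 1 of 10 endothelial, 1 of 10 pericyte and 3 of 10 stromal markers were lower along with 5 of 7 adipocyte markers, and 7 of 8 macrophage markers were higher, at that p, with 0 called. These counts rested on single horns. Without HG+ORG horn 18, 0 macrophage markers were higher, and 10 of 10 endothelial, 9 of 10 pericyte and 4 of 10 stromal markers were lower. The shares given above are from the fit with every horn, so they are no background for these counts. Features lower in HG+ORG than in HG without overlap were 0.152% with every horn and 0.808% without HG+ORG horn 18. Without that horn the macrophage markers summed to 244 to 1998 CPM in HG+ORG, against 361 to 939 CPM in HG. Without HG horn 12, which held 12838 CPM of adipocyte markers, 0 of these were lower. Of the epithelial markers, 0 were higher or lower at that p in HG+ORG vs HG and HG vs SHAM, but without HG+ORG horn 18, 2 were higher in HG+ORG than in HG and 4 were lower in HG than in SHAM. Epithelial markers, which define the lining, were thus present in every horn. The part of these cell types in the differences between groups was not tested.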

How the data were processed

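The deposited table holds raw counts of reads per gene for 23 libraries and 18682 features, made by the authors from poly(A)-selected, stranded single-end reads, per the labels' protocols. Reads had been trimmed with Trimmomatic 0.39, aligned to GRCm39 with HISAT2 2.2.1 and counted with featureCounts 2.0.3, and DESeq2 1.42.1 in R 4.3.1 had been used, per the submitters' processing notes, which name tools but no settings. Since no source states the strand setting of the counting, reads of genes that overlap on opposite strands may be mixed. In the table, 10 counts or more were reached by each feature in 3 or more libraries. Depth was 7920918 to 14902952 counts, and the counting intervals cover counting error only.

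Counts were tested as deposited with edgeR 4.0.16 (R 4.3.3): TMM scaling, filterByExpr by group, which kept 17708 features and all 34 members, the quasi-likelihood test with all 4 groups in 1 fit, and Benjamini-Hochberg adjustment over all features at 0.05. SE is the log2 fold divided by the square root of F, without sign. Alternatives were DESeq2 1.42.0, limma 3.58.1, RLE scaling, no filter, a fit with the 2 groups compared alone, SHAM horns 5 and 6 as 1 library, a prior count of 0.5, and leaving out each library. The scripts were tested on simulated data. Members and lists were chosen with earlier results of these data known, so counts over the members are descriptions. Levels of every member could be named. Fitted folds were limited, in each comparison, to the 4 muscle-enriched and 2 widely expressed members with the smallest edgeR p, not all of which are printed, and all members that DESeq2 called in HG+ORG vs HG were named after their values were seen. Promoters are from RefSeq (GRCm38.p6) and exon lengths from GENCODE vM21, neither of the build of the counts. Results of 1 gene list, and of another in HG+ORG vs HG, are not reported here.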

Additional observations from a re-analysis of the deposited data

Results flagged for a closer look

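In 140 sets of levels within 1 group (34 members and the mean of the muscle-enriched ones, in 4 groups), 2 held a horn far from the rest of its group, and chance alone gives about 5% of such sets. Dmd was at 3.14 log2 CPM in HG+ORG horn 18, where the next lowest HG+ORG horn was at 4.14. This is the library whose macrophage markers summed to 21119 CPM, and the part of that in the Dmd value was not tested. Csrp1 was at 7.501 log2 CPM in SHAM horn 3, where the next highest SHAM horn was at 6.81.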

How the results depend on the processing

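Of 467 alternatives to the counts of calls, medians and score differences, 429 gave the same call or direction with a count within 1.5 times, or a value that moved by less than the spread between horns. Many of these could change little, since they left out a library of neither group compared. A median could also move far and count as the same, as in HG+ORG vs PBS without PBS horn 10. The 429 of 467 is therefore not a measure of how stable the results are. Members called numbered 6 by DESeq2 in HG+ORG vs HG, and 19 by DESeq2 and 15 by edgeR with the 2 groups alone in HG vs SHAM, against 0. With 1 library left out, a choice made after seeing the data, the DESeq2 count in HG+ORG vs HG was 21 without HG+ORG horn 18, 7 without horn 20, 5 without horn 21 or 22 and 2 without horn 19 or 23, and it was 10, 8, 5, 3, 2 and 1 without HG horns 15, 12, 14, 13, 17 and 16. In HG vs SHAM it was 24 without HG horn 12 or 15, 15 without horn 13 or 14, 3 without horn 17, 1 without horn 16, and 19, 17, 15, 13, 11 and 4 without SHAM horns 5, 3, 6, 2, 4 and 1. By edgeR with these groups alone it was 21 without HG horn 15, 19 without HG horn 12, 1 without SHAM horn 5 and 0 in the other 9 fits. With SHAM horns 5 and 6 as 1 library the counts in HG vs SHAM were 17 and 0. The number of all features called moved as well. By DESeq2 in HG+ORG vs HG it ran from 80 without HG horn 14 to 699 without HG+ORG horn 18, against 163. By DESeq2 in HG vs SHAM it ran from 27 without SHAM horn 1 to 636 without HG horn 15, against 281. By edgeR with HG and SHAM alone it ran from 0 to 893 without HG horn 15, against 386. By limma-voom the median fold of the muscle-enriched members was 0.48 in PBS vs SHAM and -0.062 in HG+ORG vs SHAM, and the log2 fold of Jph2, HG+ORG vs SHAM, was -0.0906. Leaving out 1 library moved the score difference between -1.17 and 0.21 in HG+ORG vs PBS, -0.11 and 1.28 in PBS vs SHAM, and -0.19 and 0.35 in HG+ORG vs SHAM, changing its sign in each. The cause was not tested. No paired analysis was possible because the labels do not tie horns to mice. Few counts limit Myocd, Itga8, Jph2 and Nexn in SHAM horns, and Acta2 in PBS horn 8 and Myh11 in HG+ORG horns 22 and 23.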
